A study of Mus musculus with 30 samples.

Results

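The 6 loci described here lie at Slc27a6, Tm9sf2, Paqr3, Hvcn1, Dip2c and Sorcs2, and each holds a stretch of chromatin that opened more than almost any other when CK666 was added to mouse cells. They were picked from 3 comparisons of CK666 with control, 2 from each: Slc27a6 and Tm9sf2 from mesenchymal stem cells (MSCs) at 24 h, Paqr3 and Hvcn1 from MSCs at 4 h, and Dip2c and Sorcs2 from NIH3T3 fibroblasts at 4 h. A locus was every window of either count table that lay in the gene body or within 50000 bp of the transcription start site (TSS), which gave 245 of 305931 windows in the 24 h table and 235 of 369846 in the 4 h table. The choice ranked the log2 fold change of windows that were called increased, averaged 50 normalized counts or more and did not overlap between groups, and the best window of each locus is called its lead window. A window was called increased or decreased when edgeR's quasi-likelihood test over all windows gave an adjusted p under 0.01 and a fold above 2. The lead windows of the 6 loci were the 2 largest gains in each of the 3 comparisons, so their size there is a description and was not tested. The window just inside the choice had a log2 fold change of 5.06 in MSCs at 24 h, 2.98 in MSCs at 4 h and 3.50 in NIH3T3 at 4 h, and at 4 h the window just outside it had 2.75 in MSCs (nearest TSS 5031415H12Rik) and 3.47 in NIH3T3 (Hdac4).

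ATAC-seq counts the places where a transposase can cut, so a higher count in a window means more accessible DNA. In such bulk samples, more cells with an open window and a window more open in each cell cannot be told apart. The 21 libraries used came from 7 groups of 3: untreated MSCs, MSCs with CK666 and MSCs with CytoD at 24 h, and untreated and CK666-treated MSCs and NIH3T3 cells at 4 h. The MSCs were grown from the marrow of C57BL/6J mice, and the labels give the same strain for NIH3T3, an embryonic fibroblast line. The labels do not say whether replicates were separate cultures, so all p-values measure the spread between these libraries only. Another 9 libraries with siRNA were left out by plan. Their rank correlation with untransfected libraries over the windows lay between -0.004 and 0.001, and the cause of this was not tested. CK666 blocks the Arp2/3 complex, which starts new branches on actin filaments, and cytochalasin D (CytoD) caps filament ends and breaks up the cytoplasmic actin network.

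The 6 genes have no single function in common. Slc27a6 encodes a fatty acid transport protein with acyl-CoA synthetase activity, and Tm9sf2 a membrane protein with many passes that sits in endosomes and the Golgi. Paqr3 encodes a Golgi membrane protein that holds Raf kinase away from the plasma membrane, and Hvcn1 the voltage-gated proton channel. Dip2c encodes a large protein with adenylate-forming domains, and Sorcs2 a sorting receptor of the VPS10 family that binds proneurotrophins.

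What the lead windows shared in sequence was a short run of letters. The central 300 bases of 5 lead windows are printed from the GRCm38 reference, plus strand, because each of them holds GATGCAA or its reverse complement TTGCATC, which is in capitals. These letters are the core of the element bound by pairs of C/EBP and ATF proteins, such as CHOP or C/EBP beta with ATF4, whose textbook form is GATGNAA after a T. Read on the strand of GATGCAA, that T is present at Paqr3, Hvcn1, Dip2c and Sorcs2, while both copies at Tm9sf2 follow an A. The stretches lie at chr14:122116249-122116548 (Tm9sf2, intron), chr5:97108364-97108663 (Paqr3, intron), chr5:122230173-122230472 (Hvcn1, intron), chr13:9643490-9643789 (Dip2c, intron) and chr5:36257097-36257396 (Sorcs2, intron).
Tm9sf2: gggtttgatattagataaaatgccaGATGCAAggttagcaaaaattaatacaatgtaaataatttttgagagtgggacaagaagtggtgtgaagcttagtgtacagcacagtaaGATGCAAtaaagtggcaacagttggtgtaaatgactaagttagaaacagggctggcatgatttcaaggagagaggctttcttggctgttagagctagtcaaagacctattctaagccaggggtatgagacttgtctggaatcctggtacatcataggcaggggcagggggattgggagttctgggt
Paqr3: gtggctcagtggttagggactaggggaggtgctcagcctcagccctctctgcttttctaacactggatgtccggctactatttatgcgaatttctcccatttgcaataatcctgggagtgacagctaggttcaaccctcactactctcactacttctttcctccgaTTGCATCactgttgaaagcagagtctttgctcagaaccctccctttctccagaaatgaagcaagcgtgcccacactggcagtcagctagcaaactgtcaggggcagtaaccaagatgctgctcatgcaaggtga
Hvcn1: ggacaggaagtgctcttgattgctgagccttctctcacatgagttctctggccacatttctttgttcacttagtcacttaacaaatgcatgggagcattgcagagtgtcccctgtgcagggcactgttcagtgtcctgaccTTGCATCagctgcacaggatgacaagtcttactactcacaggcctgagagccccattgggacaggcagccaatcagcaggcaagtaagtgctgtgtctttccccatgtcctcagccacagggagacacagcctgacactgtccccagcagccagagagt
Dip2c: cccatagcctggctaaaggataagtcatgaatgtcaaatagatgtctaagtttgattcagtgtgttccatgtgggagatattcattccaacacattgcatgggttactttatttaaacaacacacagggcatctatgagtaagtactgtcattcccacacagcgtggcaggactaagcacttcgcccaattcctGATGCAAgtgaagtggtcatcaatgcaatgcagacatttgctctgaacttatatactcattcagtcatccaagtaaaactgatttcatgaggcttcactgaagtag
Sorcs2: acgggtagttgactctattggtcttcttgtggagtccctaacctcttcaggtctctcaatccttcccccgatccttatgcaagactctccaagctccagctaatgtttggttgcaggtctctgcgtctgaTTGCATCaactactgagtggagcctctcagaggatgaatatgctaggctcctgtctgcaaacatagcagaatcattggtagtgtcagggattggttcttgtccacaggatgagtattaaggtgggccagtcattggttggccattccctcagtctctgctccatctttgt

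The letters were picked after the data were seen, from a ranking of short words in windows called increased with CK666, so the matches are a description and were not tested. GATGCAA, read on both strands, was in the central 300 bases of 3.4% of all windows of the 24 h table and 3.5% of the 4 h table, and in 5 of 6 lead windows. The looser form GATGNAA, which includes GATGCAA, was in 15.5% and 16.0% of all windows and in 6 of 6 lead windows, with Slc27a6 holding GATGAAA. The match nearest to the window centre lay 27 bp before it at Slc27a6, 33 bp before it at Tm9sf2, 19 bp after it at Paqr3, 6 bp before it at Hvcn1, 47 bp after it at Dip2c and 17 bp before it at Sorcs2. Tm9sf2 held another copy 122 bp before the centre. Among all windows called increased with CK666, GATGCAA was in 16.8% in MSCs at 24 h, 16.3% in MSCs at 4 h and 12.4% in NIH3T3, and among those called decreased in 2.1%, 1.7% and 2.3%. With CytoD the shares were 4.7% of increased and 3.3% of decreased windows. These are the windows that the letters were ranked on in the CK666 comparisons, and no enrichment was tested.

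Other letters were searched on both strands from a list of 13 motifs drawn up with earlier results of these data known. In the central 300 bases, the antioxidant response element TGANNNNGC matched 3 of 6 lead windows, beside 43.0% and 44.4% of all windows in the 24 h and 4 h tables. The TEAD letters CATTCC matched 2 (19.9% and 21.3%), the xenobiotic response core GCGTG matched 2 (15.3% and 15.1%), the AP-1 letters TGANTCA matched 1 (21.0% and 28.7%) and the C/EBP letters TTGCNNAA matched 1 (14.2% and 13.4%). The extended xenobiotic element TNGCGTG, the cyclic AMP response element TGACGTCA, the NFI letters TTGGCA, the RUNX letters TGTGGT, the E-box CACGTG, the steroid receptor letters ACANNNTGT, the SP/KLF letters GGGCGG and the SRF CArG box matched 0 of 6 lead windows, where 0.3% to 27.7% of all windows held them. In base composition the lead windows were ordinary, with 40.6% to 50.7% G and C beside a 5th to 95th percentile of 36.88% to 57.22% over the 24 h table.

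The lead window of Slc27a6 went from almost closed to open in MSCs at 24 h. It lies in intergenic DNA on chromosome 18 from 58520289 to 58520830, with its centre 35698 bp before the TSS of Slc27a6 (ENSMUSG00000024600.8, plus strand). Its normalized counts were 6.49, 3.41 and 0 in the control libraries, 139, 131 and 155 with CK666 and 16.5, 2.43 and 9.14 with CytoD. All 3 CK666 libraries stood far above the other 6, and the CytoD and control libraries overlapped. The log2 fold change with CK666, which chose the locus, was 5.52 ± 0.38 (SE), and that with CytoD, which shares the control libraries with the choice, was 1.61 ± 0.59. At 4 h the overlapping window of the other table, from 58520006 to 58520877, gave a test that the choice did not use. Its counts in MSCs were 5.35, 16.8 and 21.4 in controls and 33.8, 33.6 and 40.2 with CK666, and in NIH3T3 23.3, 24.6 and 19.8 in controls and 94.9, 72.8 and 87.0 with CK666. The groups did not overlap in either cell type, and both gains were called, at 1.29 ± 0.35 (adjusted p = 0.00988) in MSCs and 1.90 ± 0.25 (adjusted p = 3.65e-08) in NIH3T3. The MSC gain stood at the edge of the limit of 0.01 for the adjusted p and was not called when any 1 of the 6 MSC libraries but control replicate 3 was left out (0.90 to 1.68).

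The lead window of Tm9sf2 behaved alike. It lies in an intron on chromosome 14 from 122116138 to 122116659, 9360 bp past the TSS (ENSMUSG00000025544.13, plus strand). Its counts at 24 h were 5.19, 5.11 and 3.57 in controls, 140, 164 and 166 with CK666 and 12.7, 9.72 and 11.0 with CytoD. CytoD libraries all stood above controls and all far below CK666 libraries. The log2 fold change was 5.06 ± 0.31 with CK666, which chose the locus, and 1.26 ± 0.46 with CytoD. At 4 h the overlapping window rose in MSCs from 7.48, 24.2 and 15.0 to 80.6, 70.7 and 79.5 (log2 fold change 2.29 ± 0.28, adjusted p = 1.74e-09). It rose in NIH3T3 from 5.06, 12.3 and 6.29 to 38.6, 44.7 and 49.7 (2.45 ± 0.38, adjusted p = 1.97e-06). The groups did not overlap in either cell type.

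At Paqr3 the lead window was inside the gene, with other windows between it and the promoter window. It lies on chromosome 5 from 97108230 to 97108798, touches a coding exon and has its centre 3083 bp past the TSS of Paqr3 (ENSMUSG00000055725.11, minus strand). In MSCs at 4 h, the choosing comparison, its counts were 21.4, 9.47 and 12.9 in controls and 133, 128 and 143 with CK666, a log2 fold change of 3.20 ± 0.24. In NIH3T3 it rose from 17.2, 32.0 and 27.9 to 176, 170 and 196 (2.79 ± 0.21, adjusted p = 9.56e-17), with no overlap. The 24 h table holds the same DNA only inside a longer window of 2775 bp, from 97108264 to 97111038, so its counts mix the lead stretch with its surroundings. That window rose from 170, 149 and 125 to 567, 505 and 543 with CK666 (1.87 ± 0.11, adjusted p = 8.22e-24). With CytoD it held 188, 215 and 208 counts (0.47 ± 0.12, adjusted p = 0.00521), above all controls but under the fold limit for a call.

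Hvcn1 opened at both times in MSCs and was not called in NIH3T3. Its lead window lies in an intron on chromosome 5 from 122230061 to 122230585, 23518 bp past the TSS (ENSMUSG00000064267.13, plus strand). In MSCs at 4 h, the choosing comparison, its counts were 17.1, 17.9 and 20.4 in controls and 144, 141 and 152 with CK666 (2.98 ± 0.22). At 24 h the overlapping window rose from 11.7, 10.2 and 8.94 to 164, 168 and 163 (4.01 ± 0.27, adjusted p = 3.3e-21). CytoD libraries there held 8.91, 20.6 and 7.31 counts and overlapped the controls (0.23 ± 0.40, adjusted p = 0.78), and without CytoD replicate 2 the sign turned (-0.36). In NIH3T3 the counts were 8.1, 9.04 and 8.99 in controls and 11.9, 28.1 and 15.3 with CK666. The groups did not overlap, but the difference was not called (1.09 ± 0.51, 95% interval 0.09 to 2.08, adjusted p = 0.153). The CK666 effect in NIH3T3 less that in MSCs was -1.90 ± 0.49 on the log2 scale. It uses the libraries that chose the locus and is given as a description, with -2.41 to -1.73 as the range when 1 library was left out.

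The lead window of Dip2c lies deep inside the gene, in an intron on chromosome 13 from 9643363 to 9643916, 367111 bp past the TSS (ENSMUSG00000048264.16, plus strand). In NIH3T3, the choosing comparison, its counts were 12.2, 16.4 and 23.4 in controls and 194, 212 and 248 with CK666 (3.64 ± 0.22). In MSCs at 4 h it rose from 10.7, 9.47 and 4.29 to 36.8, 38.9 and 47.9 (2.32 ± 0.37, adjusted p = 2.6e-06). At 24 h the overlapping window rose from 7.79, 8.52 and 5.36 to 59.0, 50.5 and 42.3 (2.79 ± 0.42, adjusted p = 2.53e-07). With CytoD it held 0, 3.64 and 3.66 counts, below all controls, and the difference was not called (-1.44 ± 0.64, adjusted p = 0.152). At such low counts a few fragments set the CytoD value. The next window, 1408 bp before the lead by centre, was open in untreated MSCs with 204, 198 and 198 counts and nearly closed in NIH3T3 with 8.64, 15.6 and 13.4. In the fit of NIH3T3 alone this window held 8.1, 14.8 and 12.6 counts in controls and 16.3, 26.0 and 21.0 with CK666.

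The lead window of Sorcs2 was the one that could not be tested in every setting. It lies in an intron on chromosome 5 from 36256950 to 36257544, 140893 bp past the TSS (ENSMUSG00000029093.14, minus strand). In NIH3T3 its counts were 4.05, 14.8 and 6.29 in controls and 87.5, 114 and 95.6 with CK666 (3.50 ± 0.30), which chose the locus. At 24 h in MSCs the overlapping window rose from 11.7, 6.82 and 10.7 to 30.9, 23.5 and 35.4 (1.63 ± 0.45, adjusted p = 0.00833), close to the limit, and was not called when any 1 of these 6 libraries was left out (1.39 to 1.76). CytoD libraries held 5.09, 10.9 and 7.31 counts and overlapped the controls (-0.30 ± 0.52, adjusted p = 0.784). In MSCs at 4 h the window fell below the filter on low counts, with 6.09, 0 and 0 counts in controls and 3.82, 11.8 and 12.6 with CK666. These groups overlapped, and a fit without that filter gave 2.16 ± 0.83 (adjusted p = 0.124). Soft-masked repeats cover 66.6% of this window, above the 95th percentile of 58% over the 4 h table, and the sources used here do not give how fragments with several matches in the genome were placed. The other lead windows had 0% to 22.3% of their bases in repeats.

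**Figure D1:**
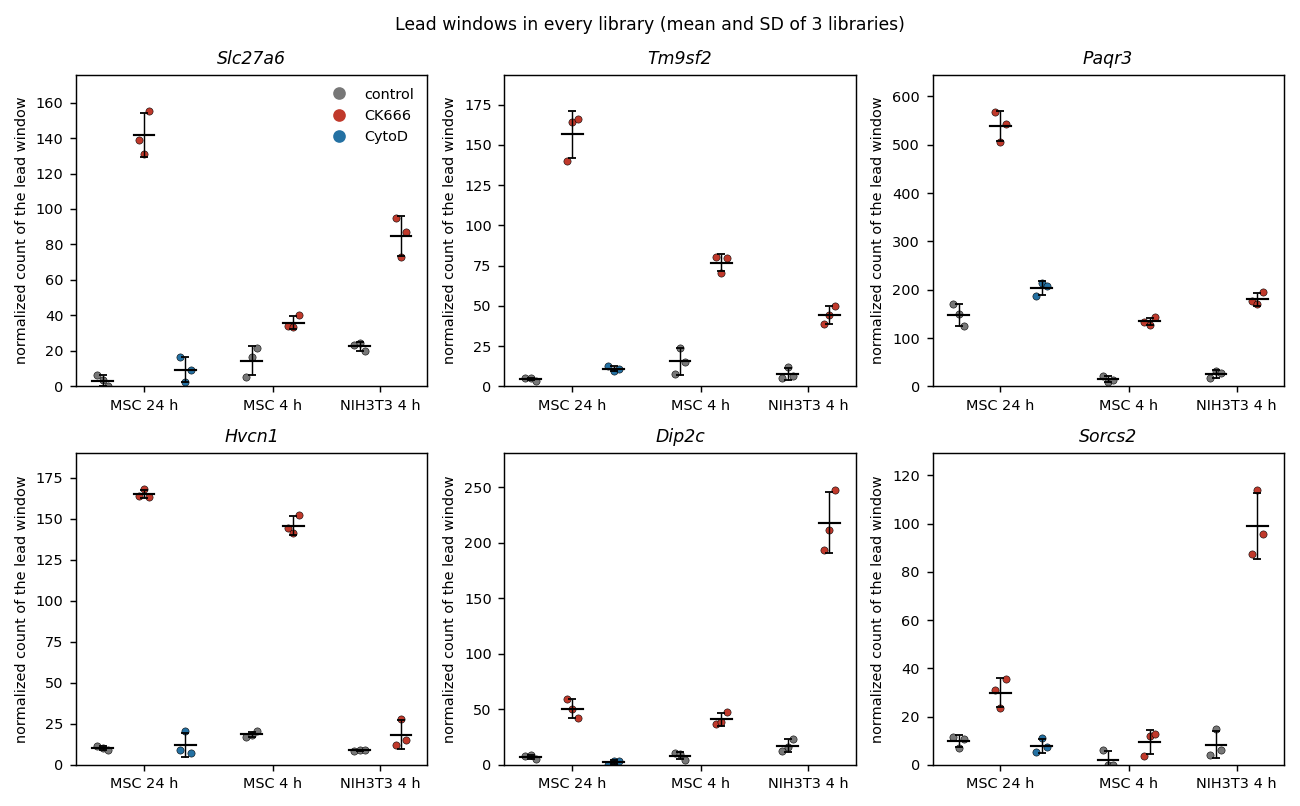
Normalized count (y axis, linear) of each lead window, or of the window overlapping it in the other table, in every library, for MSCs at 24 h, MSCs at 4 h and NIH3T3 at 4 h. Points are libraries, lines are means with SD of 3 libraries, counts are scaled within each comparison's fit, and the CK666 libraries stand above control libraries in every panel and setting apart from Sorcs2 in MSCs at 4 h.

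Every lead window was called increased in at least 1 CK666 setting that did not choose it. Of 12 such combinations of lead window and setting, 11 could be tested and 10 were called increased. The calls at Slc27a6 in MSCs at 4 h and at Sorcs2 at 24 h were lost under other settings, and the other 8 were not lost under any setting that gave them an adjusted p. By setting, the calls were 4 of 4 in MSCs at 24 h, where 1.88% of all tested windows were called increased, 3 of 3 in MSCs at 4 h, where 0.59% were, and 3 of 4 in NIH3T3, where 1.87% were. The log2 fold changes ranged from 1.63 to 4.01, from 1.29 to 2.32 and from 1.09 to 2.79.

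None of the lead windows was called with CytoD. The log2 fold changes at Slc27a6 (1.61 ± 0.59) and Tm9sf2 (1.26 ± 0.46) were above the fold limit. They share control libraries with the choice and are given without a test. For the 4 loci that the 24 h libraries did not choose, 0 of 4 lead windows were called increased, against 0.98% of all tested windows, and the log2 fold changes ran from -1.44 at Dip2c to 0.47 at Paqr3. All 4 were higher with CK666 than with CytoD when these groups were compared directly, where 2.14% of all tested windows were called higher with CK666. The differences were 4.24 ± 0.51 at Dip2c (adjusted p = 2.63e-10), 3.78 ± 0.27 at Hvcn1 (adjusted p = 7.54e-20), 1.92 ± 0.47 at Sorcs2 (adjusted p = 0.00188) and 1.40 ± 0.11 at Paqr3 (adjusted p = 9.67e-18). The Sorcs2 difference was not called without CK666 replicate 1 or 3 or CytoD replicate 1 or 3 (1.73 to 2.23 over libraries left out). At Slc27a6 and Tm9sf2 the differences were 3.91 ± 0.32 and 3.80 ± 0.27, given without a test because the same CK666 libraries chose these loci.

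**Figure D2:**
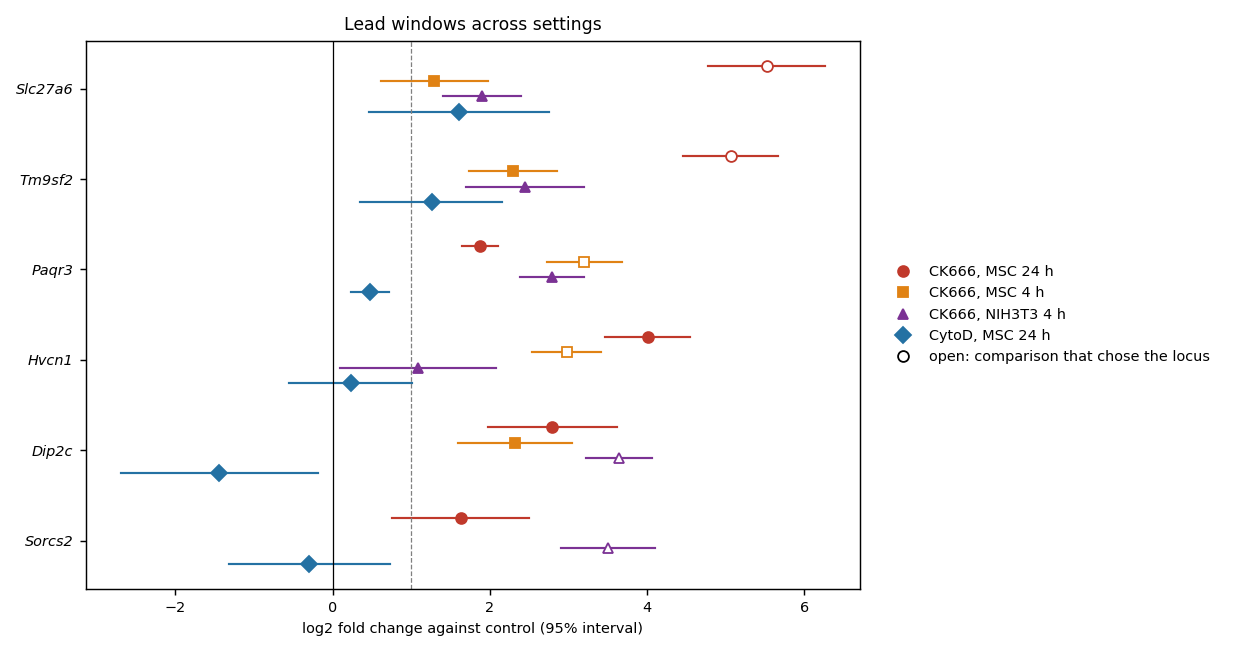
Log2 fold change against control (x axis) of each lead window or its overlapping window, with its 95% interval taken as 1.96 SE either side, for CK666 in 3 settings and for CytoD. Open symbols mark the comparison that chose the locus, Sorcs2 has no tested value in MSCs at 4 h, and the CytoD symbols lie below every CK666 symbol of the same locus except at Slc27a6, where CytoD (1.61) lies between MSCs (1.29) and NIH3T3 (1.90) at 4 h.

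Whether the response at 4 h differed between MSCs and NIH3T3 could be tested only at Slc27a6 and Tm9sf2, which were chosen at 24 h. The CK666 effect in NIH3T3 less that in MSCs was 0.58 on the log2 scale at Slc27a6 (95% interval -0.31 to 1.46, adjusted p = 0.544) and 0.13 at Tm9sf2 (95% interval -0.81 to 1.07, adjusted p = 0.925). Neither passed the test. Of all 48 windows of these loci, 0 were called for the difference, against 0.498% of all tested windows with a more positive effect in NIH3T3 and 0.905% with a more positive effect in MSCs. Before treatment the lead windows of Slc27a6 (13.8 ± 7.82 counts in MSCs and 24.0 ± 2.60 in NIH3T3, SD, n = 3) and Tm9sf2 (14.8 ± 7.98 and 8.37 ± 4.08) were low in both cell types, and neither difference was called (adjusted p = 0.0496 and 0.109). Of the 48 windows, 3 were called higher in untreated NIH3T3 and 5 higher in untreated MSCs, below the 16.2% and 18.3% over all tested windows. The 24 h and 4 h libraries are in separate tables, and times were not compared by a test.

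Most windows of the loci other than the leads were not called. Outside the lead windows, the 4 loci that MSCs at 24 h did not choose had 4 of 186 tested windows called increased with CK666 at 24 h (2.15%, against 1.88% of all windows) and 1 decreased, where 1.06% of all windows were. The 4 loci that MSCs at 4 h did not choose had 0 of 153 called increased there (0.59% of all windows) and 1 decreased (0.427% of all windows). In NIH3T3 the 4 loci chosen elsewhere had 3 of 76 called increased (3.95%, against 1.87% of all windows) and 0 decreased (1.67% of all windows). One of these 3, at 47160 bp before the lead of Tm9sf2, stood at the fold limit (log2 fold change 1.0) and was not called without CK666 replicate 1 or 3 or control replicate 1 or 3 (0.89 to 1.13 over libraries left out). With CytoD 1 of 186 windows rose and 2 fell, where 0.98% of all windows rose and 1.4% fell. The window that rose, 17281 bp past the lead of Dip2c, stood at the fold limit too, and with 1 library left out it kept its call only when that library was CytoD replicate 1 or control replicate 3 (0.80 to 1.26 over libraries of the 24 h fit left out). Compared directly, 4 of these 186 windows were higher with CK666 than with CytoD and 0 were higher with CytoD, against 2.14% and 1.14% of all windows. The median log2 fold change of windows other than the leads lay at 0.10, 0.01 and 0.02 in the 3 CK666 settings and at 0.18 with CytoD, beside 0.02, 0.00, 0.04 and 0.04 over all windows.

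Most of the nearest windows were not called. Among the 3 windows on each side of a lead, in comparisons that did not choose the locus, 1 of 22 tested was called increased with CK666 in MSCs at 24 h, 0 of 15 in MSCs at 4 h and 1 of 24 in NIH3T3, beside 1.88%, 0.59% and 1.87% of all windows. Their median log2 fold changes were 0.26, -0.03 and 0.24. With CytoD 1 of the same 22 neighbours at 24 h was called increased, beside 0.98% of all windows. The median of these neighbours was 0.62 with CytoD, beside 0.04 over all windows, and -0.08 for CK666 against CytoD. The neighbours at Slc27a6 stood apart from their lead by 9044 bp or more in the 24 h table. The 5 tested ones lay between -0.39 and 0.96 with CK666 there, in the comparison that chose the locus. In the 4 h comparisons, which did not choose it, they lay between -0.03 and 0.37 in MSCs (3 tested) and between -0.36 and 0.72 in NIH3T3 (6 tested). At Hvcn1 the window 639 bp before the lead stretch went from 3.51 ± 3.20 to 18.7 ± 5.92 counts at 24 h (SD, n = 3), with a log2 fold change of 2.26 ± 0.66 that was not called (adjusted p = 0.0151). Over the 5 tested neighbours at Hvcn1, values at 24 h ran from -0.02 to 2.26 with CK666 and from -0.15 to 1.52 with CytoD. At Sorcs2 the 5 tested neighbours at 24 h lay between -0.02 and 0.31 with CK666 and between 0.21 and 1.13 with CytoD.

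Tm9sf2 and Paqr3 each had another element, about 14 to 17 kb from the lead, that was called increased with CK666 in both MSCs at 24 h and NIH3T3. MSCs at 24 h chose the Tm9sf2 locus, so its value there is a description and not a test. At Tm9sf2 it lies in the gene from 122129978 to 122130513, 13847 bp past the lead by centre. It holds GATGCAA in its central 300 bases. It was the only 1 to do so of 6 windows other than the leads called increased with CK666 at 24 h. Among all windows called increased there, 16.8% did. In NIH3T3 0 of 6 such windows did, beside 12.4% of all windows called increased. Neither count sets these windows apart. However, 1 of the 6 in NIH3T3 is the longer 4 h window that spans this same element. Its centre is shifted, so the letters lie in that window but outside the 300 bases searched. At 24 h, where the locus was chosen, the element held 84.4, 116 and 139 counts in controls. It held 523, 487 and 551 with CK666 and 96.7, 74.1 and 85.0 with CytoD. At 4 h the overlapping window rose in NIH3T3 from 158, 154 and 144 to 347, 501 and 431 (1.49 ± 0.14, adjusted p = 1.64e-12) and in MSCs from 331, 370 and 324 to 699, 629 and 636 (0.94 ± 0.08, adjusted p = 4.74e-15), the last just under the fold limit. This element was already open before CK666, unlike the lead. At Paqr3 it lies between genes from 97124875 to 97126469, 14075 bp before the TSS. It rose at 24 h from 57.1, 45.2 and 56.3 to 259, 343 and 267 (2.47 ± 0.16, adjusted p = 5.18e-22), while CytoD libraries held 72.5, 72.9 and 75.0 (0.49 ± 0.19, adjusted p = 0.0895). At 4 h it rose in NIH3T3 from 357, 360 and 337 to 639, 849 and 657 (1.03 ± 0.13, adjusted p = 8.11e-09). MSCs at 4 h, the choosing comparison, gave 0.81 ± 0.13. The NIH3T3 value stood at the fold limit and was not called without CK666 replicate 2 or control replicate 3 (0.85 to 1.10 over libraries left out).

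Further gains were called in Dip2c and Hvcn1 at 24 h. In Dip2c an intron window 28566 bp past the TSS rose from 7.79, 8.52 and 10.7 to 42.1, 59.2 and 51.1 (2.47 ± 0.38, adjusted p = 6.51e-07), and another 61940 bp before the lead rose from 3.9, 7.67 and 10.7 to 27.2, 33.1 and 26.5 (1.90 ± 0.51, adjusted p = 0.00666). At 4 h the first of these gave 0.98 ± 0.34 in MSCs (adjusted p = 0.0572) and 0.82 ± 0.19 in NIH3T3, which chose the locus. In Hvcn1 a window over a UTR, 3062 bp past the TSS, rose from 19.5, 16.2 and 20.6 to 52.4, 27.0 and 49.1 (1.19 ± 0.32, adjusted p = 0.00747). The call at -61940 bp in Dip2c was lost without any 1 of the 6 libraries (1.62 to 2.22), and that at Hvcn1 without any 1 but CK666 replicate 2 (0.99 to 1.42). With CytoD that window held 34.4, 38.9 and 31.1 counts (0.89 ± 0.33), also above all controls. In the other direction, a Dip2c window 11689 bp before the TSS fell from 108, 124 and 124 to 57.1, 55.7 and 52.1 with CK666 (-1.12 ± 0.19, adjusted p = 5.74e-06). With CytoD, a window 39729 bp before the TSS of Hvcn1, over a noncoding exon of Gm42748, fell from 61.0, 65.6 and 67.9 to 17.8, 14.6 and 34.7 (-1.48 ± 0.28, adjusted p = 5.59e-05). In Dip2c an intron window fell with CytoD from 93.5, 114 and 101 to 42.0, 41.3 and 46.6 (-1.25 ± 0.21, adjusted p = 7.97e-06).

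**Figure D3:**
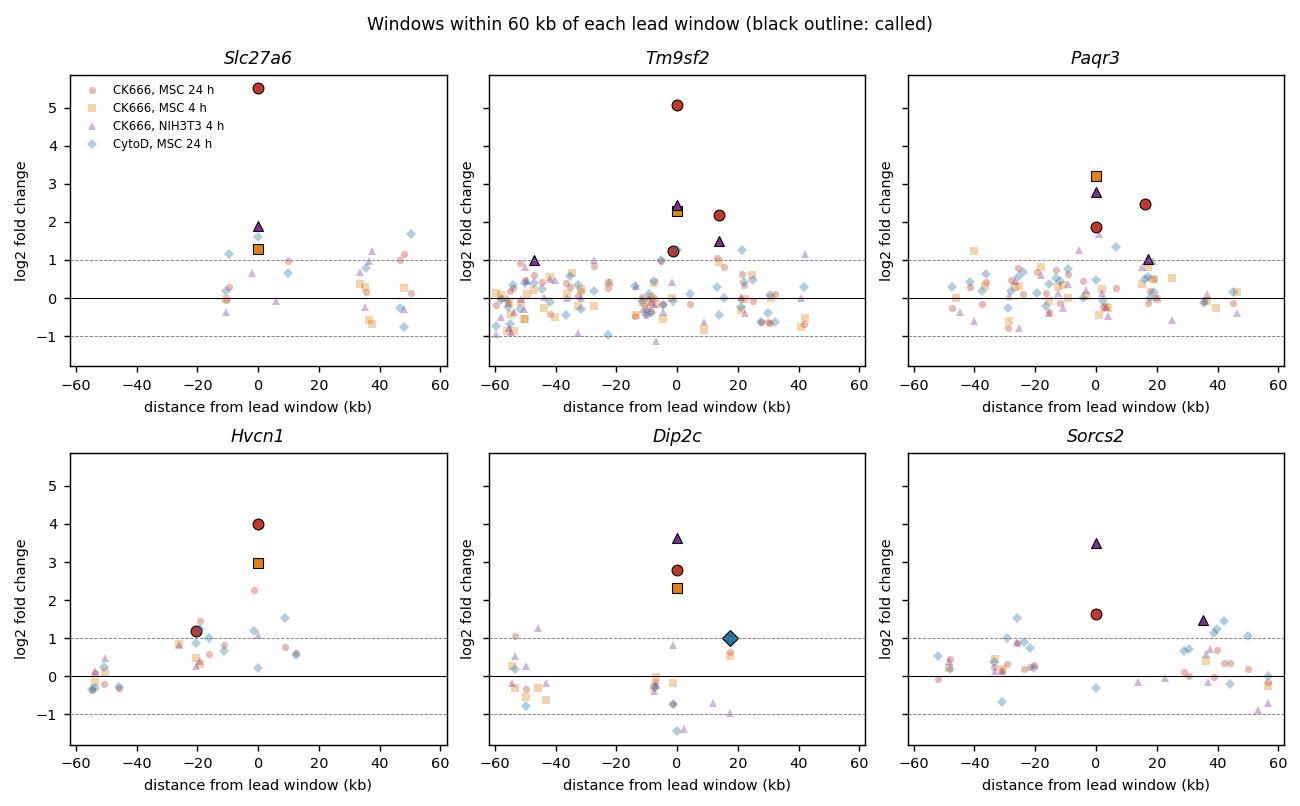
Log2 fold change against control (y axis) of the locus windows within 60 kb of each lead, by distance of their centre from the lead (x axis, kb), for CK666 in 3 settings and CytoD. Outlined symbols were called, the lead sits at 0, most other windows lie between -1 and 1, and the further called CK666 gains include those near 14 kb at Tm9sf2 and at 16 to 17 kb at Paqr3.

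No promoter window was called. A window covered the TSS of 5 of the 6 genes, Hvcn1 being the exception, and that of Slc27a6 only in the 24 h table. Over CK666 and CytoD settings, the choosing ones included, 0 of 18 values were called, with log2 fold changes from -0.47 to 0.80. Over all tested windows 0.59% to 1.88% were called increased and 0.427% to 1.67% decreased in these settings, so 0 of 18 does not set the promoters apart. The Paqr3 promoter held 2440, 2210 and 2430 counts in MSC controls at 4 h and 2080, 1930 and 2020 with CK666 (-0.23 ± 0.05), under the fold limit. At Tm9sf2 the promoter window is shared with A330035P11Rik. At 24 h, the choosing comparison, it held 332, 449 and 482 counts in controls and 428, 358 and 468 with CK666 (-0.02 ± 0.10). At 4 h it gave -0.21 ± 0.07 in MSCs (adjusted p = 0.0563) and -0.26 ± 0.13 in NIH3T3 (adjusted p = 0.169). The groups did not overlap in either cell type at 4 h. The Dip2c promoter held 627, 624 and 616 counts in controls and 460, 464 and 568 with CK666 at 24 h, a change of -0.32 ± 0.09 that was under the fold limit though its adjusted p was 0.00748. In MSCs at 4 h the Dip2c promoter gave -0.26 ± 0.06 (adjusted p = 0.00259), also under the fold limit. The Sorcs2 promoter gave 0.14 ± 0.15 there.

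Summed over all windows but the lead, the loci changed little. Windows with many counts weigh most in such a sum, so a small ratio does not show that every window stayed the same. At Paqr3, 24 h controls averaged 1290 normalized counts in the promoter window. They averaged 52.9 in the element 14075 bp before the TSS. The sum is in CPM, scaled to each library's total and TMM factor, and was compared by an exact two-sided permutation test, in which 3 libraries against 3 cannot give a p below 0.1. In settings that did not choose the locus, the log2 ratio of CK666 to control ran from -0.10 at Tm9sf2 in NIH3T3, where the sum was 112, 108 and 110 in controls and 103, 107 and 100 with CK666 (exact p = 0.1), to 0.12 at Paqr3 at 24 h, where it went from 95.7, 95.9 and 98.4 to 105, 103 and 106 (exact p = 0.1). The groups overlapped in the other 10 of these sums. Neither direction held under every setting, since Tm9sf2 gave 0.03 when scaled by total counts and 0.14 over its gene record alone, and Paqr3 gave -0.14 over its gene record. Hvcn1 differed when the sum was held to the 7 windows inside the gene record, which went at 24 h from 3.01, 2.85 and 3.42 in controls to 7.32, 6.05 and 7.36 with CK666 (log2 ratio 1.16, exact p = 0.1) and 5.83, 5.43 and 7.24 with CytoD (1.0, exact p = 0.1). Both drugs stood above all controls there, and CK666 and CytoD overlapped. All windows of the Hvcn1 locus but the lead, which include the TSS of Ppp1cc, summed to 34.8, 33.6 and 37.0 in these controls. The gene record was thus a small part of the Hvcn1 sum. With CytoD the 4 loci chosen at 4 h had log2 ratios from -0.14 at Dip2c to 0.04 at Paqr3. Between untreated cell types, with all windows but the lead, Sorcs2 summed to 111, 111 and 91.8 in untreated MSCs and 157, 153 and 162 in untreated NIH3T3, and Dip2c to 207, 208 and 206 against 169, 150 and 167.

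**Figure D4:**
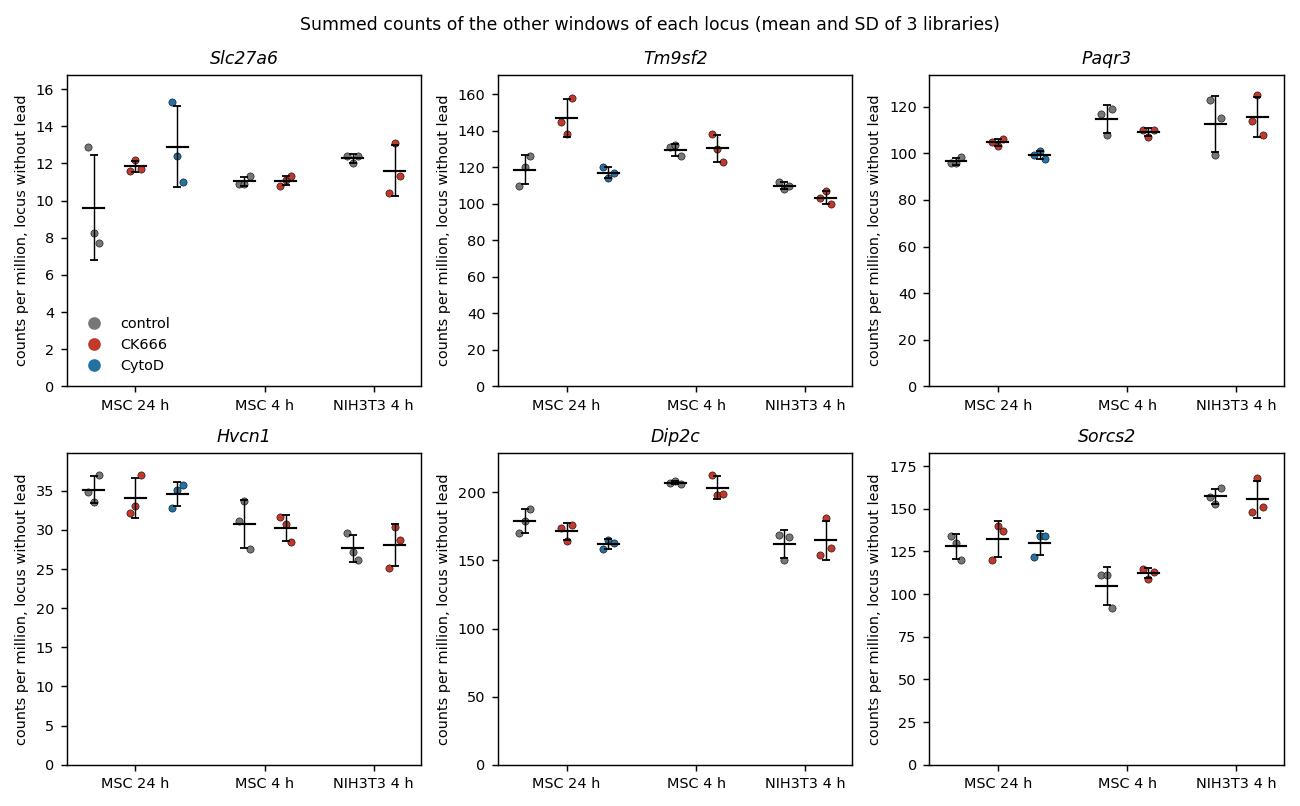
CPM (y axis, linear from 0) summed over all windows of a locus apart from its lead, in every library, for MSCs at 24 h, MSCs at 4 h and NIH3T3 at 4 h. Points are libraries, lines are means with SD of 3 libraries, and CK666 and control libraries overlap in most panels, while at Tm9sf2 in MSCs at 24 h, which chose the locus, controls had 119 ± 7.94 and CK666 libraries 147 ± 10.1. Slc27a6 in the same setting, also the choosing one, had 9.62 ± 2.84 in controls and 11.8 ± 0.325 with CK666.

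Other windows with the same pattern were sought over 4 log2 fold changes, those for CK666 in MSCs at 24 h, CytoD at 24 h, and CK666 at 4 h in MSCs and NIH3T3. Of 231270 pairs of windows that overlap between the tables, 200343 had all 4 values, and likeness was the Euclidean distance between the 4 values. The comparisons at 24 h share control libraries, so the distances are a description. The window most like the lead of Slc27a6 was the lead of Tm9sf2 itself, at a distance of 1.28, and the next lay near Gm8860 at 1.33. The closest to Tm9sf2 lay near Gm34759 (1.08) and near the same Gm8860 window (1.17), which gained 4.72 at 24 h and 1.91 and 1.49 at 4 h. For Paqr3 they lay near 4930584E12Rik (1.01) and Rpl35 (1.30), for Hvcn1 near Abcc4 (0.95) and Mir6340 (0.99), and for Dip2c near Gm13270 (1.59) and Gm8209 (1.65). The Abcc4 window gained 4.08 in MSCs at 24 h, 2.16 in MSCs at 4 h and 1.54 in NIH3T3, beside 0.39 with CytoD. Sorcs2 had no value in MSCs at 4 h and was not compared.

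Library totals ran from 14071301 to 22352180 counts at 24 h and from 14496058 to 34979833 at 4 h. Marker genes were read at their TSS in untreated libraries, per kb of window. Windows covered the TSS of 3 of 8 stromal, 3 of 4 fibroblast, 2 of 5 blood and 2 of 4 endothelial markers in the 24 h table and of 5, 4, 3 and 3 in the 4 h table, with the stromal markers at 60.6 (Pdgfra), 82.0 (Cxcl12) and 417 (Pdgfrb) counts per kb in MSCs at 24 h, beside a median of 126.6 over all TSS windows. The stromal marker Thy1 had 1.29 counts per kb in untreated MSCs at 4 h and 134 in NIH3T3. Blood markers Ptprc and Itgam and endothelial Pecam1 had no window at their TSS in either table, and the other blood and endothelial markers reached at most 105 and 71.7 counts per kb at 24 h. At 4 h the highest blood value in MSCs was 195 counts per kb, beside a TSS median of 203.5. The part of other cells in the results was not tested.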

How the data were processed

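ATAC-seq libraries were made from 50000 cells with the Omni-ATAC protocol. The authors processed paired-end reads with PEPATAC, bowtie2 and MACS2 on mm10, took the union of peaks over replicates as windows, and deposited raw read counts per window in 1 table for 24 h and 1 for 4 h. Read filters, cut-site shift and tool versions were not stated in the sources used here. The authors' own test was DESeq2.

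Groups were taken from the labels, and 21 of 30 libraries were used. The 6 loci, the lead rule, 13 motifs and the marker lists were chosen with earlier results of these data known, and GATGCAA after its counts were seen. Windows were annotated with GENCODE vM21 on GRCm38 and named by the lead rule, 3 neighbours on each side, the TSS window, any window called in a comparison that did not choose the locus, the first window outside the choice (that of the 24 h comparison is not reported here), and the 2 most alike windows over 1000000 bp away. Counts were fitted with edgeR 4.0.16 (R 4.3.3) after filterByExpr and TMM scaling, in 1 fit of the 9 libraries at 24 h, 1 fit of 6 libraries for each cell type at 4 h and 1 fit of all 12 libraries for the interaction and the untreated cells. P-values were adjusted by Benjamini-Hochberg over all windows tested, and calls needed a fold above 2 at an adjusted p under 0.01. Normalized counts are scaled to the mean library size of their fit, and windows were matched between tables by an overlap of at least 1 bp. Sums were compared by exact permutation tests with scipy 1.17.1. The fits were tested on simulated data. The alternatives were DESeq2 1.42.0, RLE and total-count scaling, no filter on low counts, the replicate number as a block, the gene record alone and each library left out.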

Additional observations from a re-analysis of the deposited data

Results flagged for a closer look

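At 3 of 235 locus windows the CK666 effect at 4 h passed the limits for a call between NIH3T3 and MSCs in the edgeR fit of all 12 libraries. The effect was more positive in NIH3T3 at 1 of them and in MSCs at 2. That is near the shares over all tested windows, 0.498% and 0.905%, so the count does not set these loci apart. Each difference uses libraries that chose its locus, so it is a description and no test of it is given. The lead window of Hvcn1 gained 2.98 ± 0.22 in MSCs and 1.09 ± 0.51 in NIH3T3 on the log2 scale, a difference of -1.90 ± 0.49. In Dip2c the window from 9482695 to 9483280, which lies 160652 bp before the lead, fell by 1.0 in MSCs and gave 0.39 ± 0.25 in NIH3T3, a difference of 1.37 ± 0.32. That fall in MSCs did not use the choosing libraries, stood at the fold limit, and was not called without CK666 replicate 3 or control replicate 1 (-1.13 to -0.90 over libraries left out). The Dip2c window from 9660633 to 9661180, which lies 17267 bp past the lead, gave 0.52 ± 0.17 in MSCs and -0.96 ± 0.29 in NIH3T3, a difference of -1.49 ± 0.33. Left out 1 at a time, libraries moved the differences over -2.41 to -1.73 at Hvcn1, 1.16 to 1.60 at the first Dip2c window and -1.75 to -1.30 at the other.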

How the results depend on the processing

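The counts of called locus windows stayed within 1.5 times their value under 42 of 42 other settings and 59 of 63 omissions of 1 library. The 4 exceptions were the interaction, where 0 to 2 windows were called with 1 library out. Of the lead windows outside the choosing comparisons, 161 of 173 values under other settings and 288 of 330 with 1 library out kept direction and side of the limits, and the cause of the changes below was not tested. With DESeq2, Sorcs2 gave 1.62 at 24 h (adjusted p = 0.0142) and 2.18 for untreated NIH3T3 against MSCs (adjusted p = 0.0378), both no longer called, and Slc27a6 (1.30) and Dip2c (2.33) in MSCs at 4 h had no adjusted p. With DESeq2's size factors Slc27a6 in MSCs at 4 h gave 1.29 (adjusted p = 0.0101). Without the filter on low counts, a setting chosen for single windows after seeing the data, Sorcs2 at 24 h gave 1.60 and Slc27a6 in MSCs at 4 h gave 1.30 (adjusted p = 0.0142), and neither was called. Untreated Paqr3, at the fold limit, was called higher in NIH3T3 with DESeq2 (1.04), its size factors (1.03), total counts (1.24) and no filter (1.02). Windows other than the leads, whose alternatives were also added after seeing the data, kept their calls in 59 of 70 values under other settings and 86 of 120 with 1 library out. The Hvcn1 interaction, a description, was -1.80 with total counts.

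The replicate numbers do not pair the libraries, since same-numbered libraries had correlated deviations of -0.073 to 0.028. With the replicate number as a block, the Sorcs2 gain at 24 h (1.62, adjusted p = 0.0116) was not called, the Hvcn1 interaction was -1.91, and the called locus windows numbered 10 with CK666 in MSCs at 24 h, 3 with CytoD, 14 for CK666 against CytoD, 6 in MSCs at 4 h, 12 in NIH3T3, 2 for the interaction and 77 for the untreated cells.

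With 1 library left out, the lead values ran over 1.39 to 1.76 (Sorcs2, CK666 at 24 h), 1.73 to 2.23 (Sorcs2, CK666 against CytoD), 0.90 to 1.68 (Slc27a6, MSCs at 4 h) and -0.36 to 0.53 (Hvcn1, CytoD). The interaction ran over -0.34 to 0.58 at Tm9sf2, with the sign turned in 4 of 12 omissions, -2.41 to -1.73 at Hvcn1 and -2.79 to 1.98 at Sorcs2, and the untreated comparison over 0.77 to 1.38 at Paqr3, 0.94 to 1.49 at Dip2c and 1.43 to 6.22 at Sorcs2, whose control counts included 0.

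The summed loci moved more. Scaled by total counts, the log2 ratio was 0.04 at Slc27a6, 0.03 at Tm9sf2 and 0.15 at Hvcn1 for CK666 in NIH3T3, 0.11 at Paqr3, 0.05 at Hvcn1 and -0.07 at Dip2c for CytoD, 0.01 at Paqr3 and 0.00 at Dip2c for CK666 against CytoD, and 0.38 at Slc27a6 and 0.00 at Tm9sf2 for untreated NIH3T3 against MSCs. Over the gene record alone it was -0.11 at Slc27a6 and 0.14 at Tm9sf2 for CK666 in MSCs at 4 h, 0.14 at Tm9sf2, -0.19 at Paqr3 and 0.29 at Hvcn1 in NIH3T3, -0.14 at Paqr3 and 1.16 at Hvcn1 in MSCs at 24 h, -0.02 at Paqr3 and 1.0 at Hvcn1 for CytoD, -0.12 and 0.16 at these for CK666 against CytoD, and -0.37 at Tm9sf2 for the untreated cells. Total counts moved the median log2 fold change of all windows to 0.12 for CytoD, -0.10 for CK666 against CytoD, 0.15 in NIH3T3 and for the interaction, and 0.25 for the untreated cells. The share of calls that were increases then went from 41.2% to 56.4%, 65.3% to 53.8%, 52.8% to 69.5%, 35.5% to 53.8% and 46.9% to 59.2%.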

Other observations

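Before treatment, the windows called between the cell types were mostly higher in NIH3T3 at Sorcs2 and mostly higher in MSCs at Dip2c. Most windows of both loci were not called. These comparisons share the NIH3T3 control libraries with the choice of both loci and are given as a description. Of 76 tested windows at Sorcs2, 28 were called higher in untreated NIH3T3 and 4 higher in untreated MSCs, beside 16.2% and 18.3% of all tested windows, with a median log2 difference of 1.11 outside the lead. At Dip2c 9 of 73 windows were called higher in NIH3T3 and 23 higher in MSCs, with a median of -0.65. Paqr3 had 4 of 27 windows higher in NIH3T3 and 1 higher in MSCs, and Hvcn1 had 1 of 11 higher in NIH3T3 and 0 higher in MSCs, none of these shares above those over all windows.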
